A study of Homo sapiens with 12 samples.

Results

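The 32 genes described here belong to the ATF4 pathway, the transcriptional arm of the integrated stress response, and were measured in T84 cells held in acid or neutral saline. They were chosen by symbol as a list, with earlier results of these data known. Shares of members and of other lists are therefore set beside those of all genes as description only. All 32 were found among the 48162 Ensembl gene identifiers of the count table. For the comparison, 14 were grouped as biosynthetic enzymes and 17 as stress factors (transcription factors, feedback regulators, growth and death effectors, and secreted or surface proteins), and the tRNA exporter XPOT was kept apart. T84 is an established human colon carcinoma line that forms a polarised epithelial sheet and serves as a model of the intestinal epithelium. Confluent cells were moved from medium to Hanks buffered saline of pH 7.4 or pH 6.0 and held there for 3 h or 6 h, with 3 libraries in each of the 4 groups. Every group had been moved to saline, so that no library shows the cells in their growth medium. Saline of this type holds salts and glucose and, as usually made, no amino acids. Whether libraries stand for separate wells or cultures is not stated, so the p-values cover the variation among these libraries alone, and that variation may be technical. RNA was taken from whole wells, where fewer cells of a kind and less RNA per cell cannot be told apart.

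In the integrated stress response, kinases that sense amino acid lack, misfolded protein in the endoplasmic reticulum (ER), double-stranded RNA or mitochondrial and haem stress phosphorylate the initiation factor eIF2. General translation then falls while the mRNA of the transcription factor ATF4 is translated more, and ATF4 with C/EBP partners switches on amino acid synthesis, amino acid uptake and tRNA charging as well as growth-arrest and death genes. Feedback comes from PPP1R15A, which brings a phosphatase to eIF2, and from TRIB3, a pseudokinase that restrains ATF4. ATF4 protein is set largely at translation, which RNA counts do not show.

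At the promoters of these genes ATF4 and C/EBP proteins bind a composite site, the C/EBP-ATF response element, whose core reads TGATGNAA. RefSeq promoter windows (250 bases before to 50 after a gene's start, GRCh38.p14) were found for 24 of the 32 members, with 41 windows among them. Of the 24 members 6 held the core on either strand, against 4.46% of all 27305 genes with windows. Of all 35116 windows 3.62% held it. Some genes had several windows, members more often than all genes, so that more sequence per gene was searched in members. The matches fell to both classes, 3 of 9 enzymes (ASNS, GOT1 and BCAT1) and 3 of 14 stress factors (CHAC1, CEBPG and JDP2). The form TGATGCAA, contained in the core above, was in 5 of them, against 1.08% of all genes. The cAMP response element TGACGTCA, a site of CREB and ATF family proteins that reads the same on both strands, was in the window of 1 member, PPP1R15A, against 2.25% of all genes. The E-box CACGTG, a site of MYC and related factors that also reads the same on both strands, was in 3 (ATF4, ALDH18A1 and BCAT1), against 8.77%, and the ER stress response element, known to the ATF6 branch, was found in none on either strand, against 0.09%. A match is a run of letters only, and no match says only that these letters are not in the window. The stretches below hold the matched letters in capitals, are read 5′ to 3′ on the gene's strand and end before its start. They are shown for 4 members that were lower at pH 6.0 (ASNS, CHAC1 and JDP2 at both times, CEBPG at 6 h alone). GOT1, which has the same core and passed at neither time, and PPP1R15A, which was higher at 6 h, are shown as well. The stretch of BCAT1, a scarcely expressed member that also has the core and passed at neither time, is not shown. On the minus strand lie ASNS at chr7:97872444-97872501 and GOT1 at chr10:99430790-99430847. On the plus strand lie CHAC1 at chr15:40953237-40953294, CEBPG at chr19:33374046-33374103, JDP2 at chr14:75427981-75428021 and PPP1R15A at chr19:48872338-48872395. In CHAC1 and GOT1 the core lies on the opposite strand and appears as its reverse complement.
ASNS: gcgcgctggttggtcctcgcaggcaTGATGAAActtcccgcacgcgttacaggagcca
CHAC1: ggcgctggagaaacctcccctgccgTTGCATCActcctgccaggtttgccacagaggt
CEBPG: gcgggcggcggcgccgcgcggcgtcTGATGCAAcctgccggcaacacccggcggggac
JDP2: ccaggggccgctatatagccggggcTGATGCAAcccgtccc
GOT1: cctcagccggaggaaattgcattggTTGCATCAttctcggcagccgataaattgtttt
PPP1R15A: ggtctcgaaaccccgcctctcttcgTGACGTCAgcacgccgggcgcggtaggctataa

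Libraries held between 13912532 and 24331032 counts, and levels below are in CPM, counts scaled to a common library total, with totals corrected by TMM factors. Of the 12 epithelial markers 12 passed the expression filter, with summed levels of 9461 to 12442 CPM over the libraries, the lowest of them being CDX1. Summed levels ran from 1.16 to 24.2 CPM for 7 fibroblast markers, with the highest in the second pH 7.4, 6 h library, 7.18 to 11.5 CPM for 6 leukocyte markers and 0.327 to 1.28 CPM for 3 endothelial markers. In the pH 6.0, 3 h group the second library, the shallowest of the series, was the lowest of its group for 25 of the 32 members. The first pH 6.0, 6 h library was the lowest of its group for 21, and the second pH 7.4, 6 h and first pH 7.4, 3 h libraries were the highest of theirs for 21 and 20. Differences were tested with edgeR's quasi-likelihood test over 15630 genes, and a gene was taken as changed at a Benjamini-Hochberg adjusted p under 0.05. A value after ± is the SE (standard error) of the log2 fold change, unless it is marked as an SD. The SE comes from 1 fit over all 12 libraries, 3 a group, and not from the compared groups alone.

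All 32 members passed the expression filter, although 4 were scarcely expressed. ALDH1L2, BCAT1, CBS and VLDLR had mean levels of 0.833, 0.675, 1.69 and 2.49 CPM over all libraries. Per length, in the RPKM values deposited by the authors, the most abundant member at pH 7.4 and 3 h was TRIB3 at 210.2 ± 18.1 RPKM (SD, n = 3), with the proline synthesis enzyme ALDH18A1 at 196 ± 16.4 and ATF4 itself at 179 ± 11.9. Neighbours in this order did not differ beyond these SDs. Among the enzymes SHMT2 followed at 97.5 ± 5.68 RPKM and ASNS at 80.6 ± 6.73, and CTH was lower at 7.91 ± 0.621. DDIT3, which encodes the death-linked factor CHOP, stood at 19.0 ± 0.599 RPKM, far below ATF4. At pH 6.0 and 6 h the order had changed at the top, with DDIT4 at 326 ± 22.7, GDF15 at 259 ± 55.9, ALDH18A1 at 231 ± 14.9, TRIB3 at 212 ± 18.6 and PPP1R15A at 202 ± 12.2 RPKM (SD, n = 3). DDIT4 lay above ALDH18A1, TRIB3 and PPP1R15A by more than these SDs, whereas each gene's range of 1 SD overlapped that of its neighbour in the order.

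**Figure D1:**
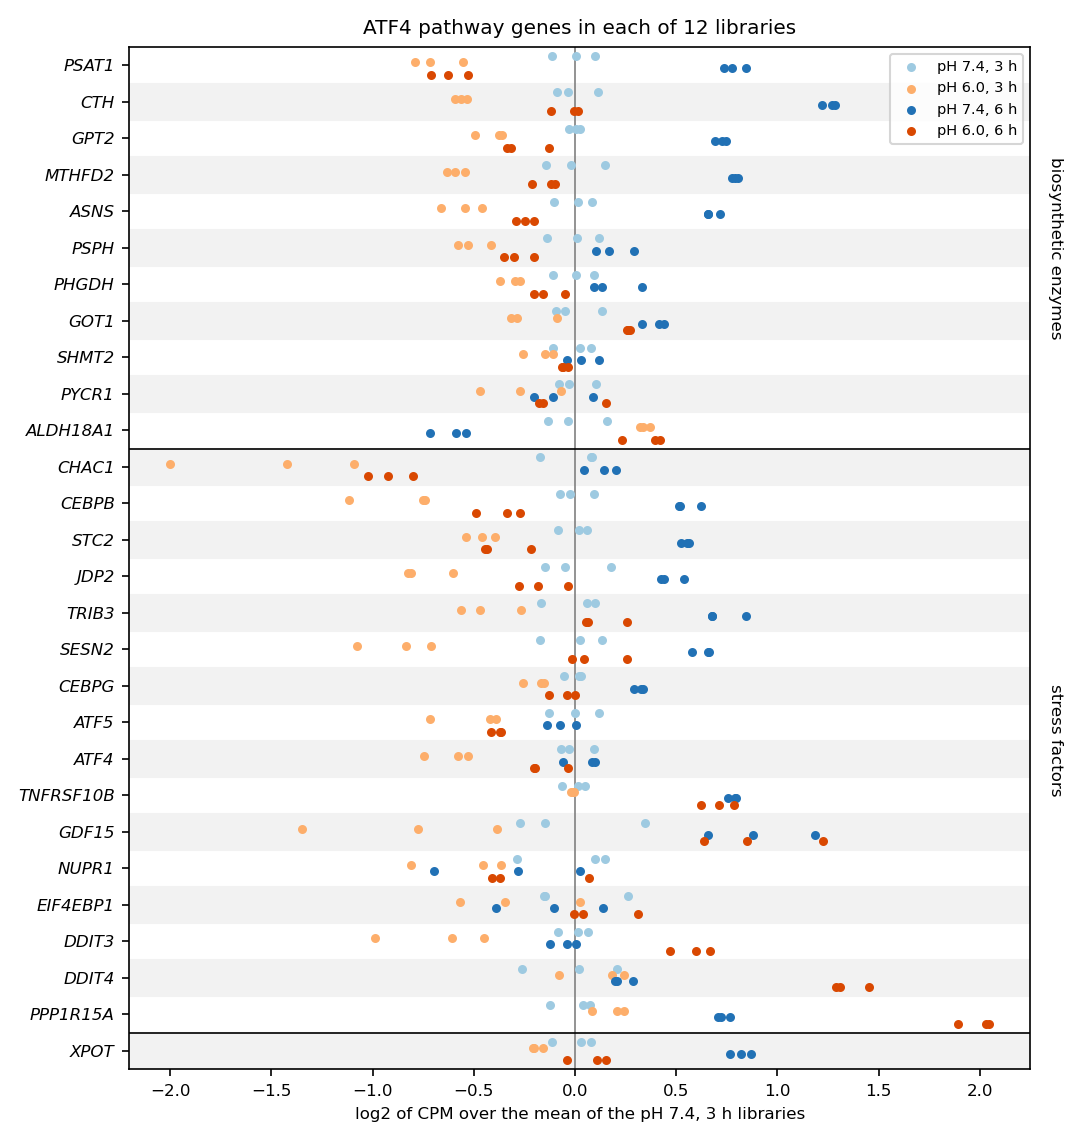
The log2 of CPM over the mean of the pH 7.4, 3 h libraries (x axis) is plotted for the 28 members with a mean of at least 5 CPM (y axis), with 1 point per library and 1 colour per group. The pH 6.0, 6 h points of PPP1R15A, DDIT4 and DDIT3 lie to the right of all other groups, and those of PSAT1 stay with the pH 6.0, 3 h points while its pH 7.4, 6 h points lie to the right.

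The first question is how acid saline differed from neutral saline after 3 h. Where members differed they were lower at pH 6.0 with 1 exception: 16 of 32 were lower and 1, ALDH18A1, was higher. That is 50% lower, against 9.26% of all genes tested, with 9.53% of all genes higher. Without the second acid library 15 were lower. The median log2 difference of the members was -0.42, against -0.003 over all genes. The libraries of the pH values did not overlap for 25 members, 21 lower and 4 higher, against 33% of all genes (16.3% lower and 16.7% higher). By the test both classes had lower members, 7 of 14 enzymes and 9 of 17 stress factors, and the class medians were -0.29 and -0.49.

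Of the 7 transcription regulators, ATF4, ATF5, DDIT3, CEBPB and JDP2 were lower at 3 h, and CEBPG and NUPR1 did not pass. ATF4 read 373, 332 and 342 CPM at pH 7.4 and 242, 208 and 234 CPM at pH 6.0, a log2 change of -0.61 ± 0.08 (adjusted p = 1.91e-05). Its partner CEBPB read 124, 115 and 111 CPM and 69.9, 53.7 and 69.4 CPM (-0.86 ± 0.09, adjusted p = 1.18e-06). The DDIT3 libraries stood at 21.4, 19.9 and 22.1 CPM and 13.9, 10.7 and 15.5 CPM (-0.66 ± 0.12, adjusted p = 0.000531). For each of these factors every acid library lay below every neutral one. JDP2, a repressor at AP-1 sites, was lower by a like amount (-0.74 ± 0.10). ATF5, a factor tied to the mitochondrial stress response, was lower as well (-0.49 ± 0.12, adjusted p = 0.00783). It read 13.9, 12.7 and 15.0 CPM at pH 7.4 and 10.4, 8.42 and 10.6 CPM at pH 6.0, and missed the threshold without the second acid library (adjusted p = 0.0584). CEBPG, a C/EBP partner of ATF4, was lower in all acid libraries, at 257, 242 and 256 CPM against 224, 211 and 227 CPM, but did not pass (-0.19 ± 0.07, adjusted p = 0.065). It passed with DESeq2, with total counts, with the gene length offset and without the second neutral library, at an adjusted p as low as 0.0235. NUPR1, a small stress-induced chromatin protein, had a log2 change of -0.53 ± 0.19 that did not pass (adjusted p = 0.0757), although it did under 7 of 20 alternatives.

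CHAC1, an enzyme that degrades glutathione, had the largest decrease of the members at 3 h. Its libraries read 33.4, 28.1 and 33.6 CPM at pH 7.4 and 14.9, 7.93 and 11.8 CPM at pH 6.0 (-1.44 ± 0.15, adjusted p = 1.06e-06). SESN2, which senses leucine and restrains the growth kinase complex mTORC1, went from 92.8, 80.8 and 99.9 CPM to 51.1, 43.1 and 55.7 CPM (-0.86 ± 0.10). The pseudokinase TRIB3 read 542, 451 and 527 CPM at pH 7.4 and 421, 342 and 366 CPM at pH 6.0 (-0.43 ± 0.09, adjusted p = 0.00294). None of these 3 genes had overlapping groups. The secreted glycoprotein gene STC2 read 220.1, 199 and 214 CPM at pH 7.4 and 154, 145 and 161 CPM at pH 6.0 (-0.46 ± 0.08) and was lower as well. The mTORC1 inhibitor gene DDIT4 did not pass at this time, with 269, 195 and 236 CPM against 275, 220.5 and 265 CPM (0.12 ± 0.10, adjusted p = 0.433). PPP1R15A, at 129.6, 116 and 133 CPM against 146, 134 and 149 CPM, did not pass either (0.18 ± 0.08, adjusted p = 0.113), although its groups did not overlap and it was called higher with the gene length offset. The death receptor gene TNFRSF10B differed by -0.01 ± 0.07 (adjusted p = 0.934). The stress cytokine GDF15 read 312, 221 and 203 CPM and 188, 96.4 and 143 CPM, a difference of -0.78 ± 0.28 that did not pass (adjusted p = 0.082) although no library overlapped, and that passed under 4 of 20 alternatives. The translation repressor gene EIF4EBP1 (-0.28 ± 0.17) and the lipoprotein receptor gene VLDLR (-0.25 ± 0.25) did not pass.

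The 7 enzyme genes lower at 3 h were ASNS, PHGDH, PSAT1, PSPH, MTHFD2, CTH and GPT2. ASNS, which makes asparagine, read 194, 184 and 170.5 CPM at pH 7.4 and 133, 116 and 126 CPM at pH 6.0 (-0.55 ± 0.08, adjusted p = 2.61e-05). The serine pathway was lower at each of its steps. PSAT1, the middle one, read 148, 139 and 128 CPM at pH 7.4 and 94.3, 79.9 and 84.3 CPM at pH 6.0 (-0.68 ± 0.08), and PSPH, the last, differed by -0.51 ± 0.09. PHGDH, the first of them, read 167, 145 and 157 CPM and 129, 121 and 127 CPM (-0.31 ± 0.08, adjusted p = 0.01) and missed the threshold without the first neutral library (adjusted p = 0.0551). MTHFD2, which passes one-carbon units through mitochondrial folate, went from 129, 115 and 105 CPM to 79.8, 75.0 and 77.1 CPM (-0.59 ± 0.08). CTH makes cysteine from cystathionine, and its libraries read 16.9, 14.7 and 15.2 CPM against 10.5, 10.3 and 10.8 CPM (-0.57 ± 0.11). GPT2, the mitochondrial alanine aminotransferase, read 115, 111 and 114 CPM against 87.5, 80.6 and 88.3 CPM (-0.41 ± 0.08). In all of these genes the acid libraries lay below the neutral ones. The mitochondrial serine hydroxymethyltransferase gene SHMT2 (-0.17 ± 0.08), the proline enzyme gene PYCR1 (-0.26 ± 0.11) and the aspartate aminotransferase gene GOT1 (-0.23 ± 0.08, passing under 5 of 20 alternatives) did not pass. Neither did the mitochondrial folate dehydrogenase ALDH1L2 (0.93 ± 0.44), the cystathionine synthase CBS (-0.00 ± 0.34) or the branched-chain aminotransferase BCAT1 (1.16 ± 0.53), all scarcely expressed. The exception among the enzymes was ALDH18A1, which starts proline synthesis from glutamate and read 578, 619 and 707 CPM at pH 7.4 and 794, 819.8 and 801 CPM at pH 6.0 (0.34 ± 0.09, adjusted p = 0.00761). XPOT, which carries tRNA out of the nucleus, read 255, 246 and 223 CPM and 210.2, 216 and 209.5 CPM and did not pass (-0.19 ± 0.08, adjusted p = 0.09), but was called lower with the gene length offset.

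After 6 h most of the members that differed were again lower at pH 6.0. There 17 of 32 were lower (53.1%) and 4 higher (12.5%), against 25.1% and 21.9% of all genes tested. PPP1R15A, DDIT4 and DDIT3 were the 3 stress factors that were higher and ALDH18A1 the enzyme. Of the 16 members lower at 3 h, 14 were lower again, ATF4 no longer differed by the test and DDIT3 had turned. How many of all genes lower at 3 h were lower again at 6 h was not counted. The members that were higher or lower made up 65.6% of the list, against 47% of all genes. The libraries did not overlap for 22 members, 18 lower and 4 higher, against 56.6% of all genes (29.7% lower and 26.9% higher). The share of counts from mitochondrial genes was 7.14% to 7.40% in the pH 6.0 and 7.97% to 8.97% in the pH 7.4 libraries of this time, and its part in the differences was not tested. The median of the enzymes was -0.59 and that of the stress factors -0.32, with 7 of 14 and 9 of 17 lower.

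PPP1R15A, the phosphatase subunit that reverses eIF2 phosphorylation, had the largest increase among the members at 6 h. It read 215, 205 and 208 CPM at pH 7.4 and 468, 521 and 514 CPM at pH 6.0, a log2 change of 1.26 ± 0.08 (adjusted p = 1.69e-11). DDIT4 went from 269, 285 and 267 CPM to 569, 639 and 577 CPM (1.12 ± 0.10, adjusted p = 1.02e-08). DDIT3 read 20.5, 21.2 and 19.4 CPM at pH 7.4 and 29.2, 32 and 33.6 CPM at pH 6.0 (0.63 ± 0.11, adjusted p = 8.86e-05). All 3 acid libraries lay above all 3 neutral ones for each of these genes. DDIT3 shares exonic sequence with MARS1 and MBD6 on the other strand and with AC022506.1 on its own, and use of strand in counting is not given in the sources used here. The part of reads from these genes in the DDIT3 counts was not tested.

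The remaining stress factors that passed at 6 h were lower at pH 6.0, among them the C/EBP partners of ATF4. CEBPB read 167, 179.7 and 167 CPM at pH 7.4 and 83.1, 92.3 and 96.5 CPM at pH 6.0 (-0.92 ± 0.09), close to its difference at 3 h. CEBPG now passed, at 308, 316 and 318 CPM against 230.4, 252 and 245 CPM (-0.37 ± 0.07, adjusted p = 0.000194). CHAC1 remained the stress factor with the largest decrease, at 35.0, 36.5 and 32.7 CPM against 15.6, 16.7 and 18.2 CPM (-1.04 ± 0.14). TRIB3 read 810.0, 911 and 811 CPM and 527, 606 and 529.6 CPM (-0.61 ± 0.09), so that the acid libraries at 6 h overlapped the neutral libraries at 3 h. SESN2 did likewise, at 136, 144 and 144 CPM and 90.4, 109 and 94.0 CPM (-0.53 ± 0.10). STC2 went from 303, 309.9 and 312 CPM to 155, 182 and 156 CPM (-0.91 ± 0.08). JDP2 (-0.63 ± 0.09) and the barely expressed VLDLR (-0.97 ± 0.27) were lower. ATF5 was lower at 12.6, 13.9 and 13.1 CPM against 10.7, 10.7 and 10.4 CPM (-0.32 ± 0.12, adjusted p = 0.0415), a call lost under 13 of 20 alternatives. ATF4 itself read 373, 370.3 and 334 CPM and 304, 303 and 341 CPM, a difference of -0.19 ± 0.08 that did not pass (adjusted p = 0.0695) but did with total counts, with the gene length offset and without the third neutral library (lowest adjusted p 0.00272 over all alternatives). GDF15 read 451, 558 and 387 CPM at pH 7.4 and 381, 573 and 442 CPM at pH 6.0, with overlapping groups and a difference of 0.00 ± 0.27. TNFRSF10B (-0.07 ± 0.07), NUPR1 (0.06 ± 0.19) and EIF4EBP1 (0.23 ± 0.17) did not pass either.

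Among the enzymes PSAT1 and CTH had the largest decreases at 6 h. PSAT1 read 237, 249 and 231 CPM at pH 7.4 and 89.5, 95.8 and 84.5 CPM at pH 6.0 (-1.41 ± 0.08, adjusted p = 7.4e-12). CTH went from 36.3, 37.5 and 38.0 CPM to 14.3, 15.5 and 15.8 CPM (-1.29 ± 0.10, adjusted p = 5.85e-10). ASNS stood at 288, 300.3 and 288 CPM and 149.5, 159 and 154 CPM (-0.92 ± 0.08). No acid library of these genes reached the level of a neutral one. MTHFD2 was lower by about the same as ASNS, at 201, 203 and 199 CPM against 108, 107 and 100.4 CPM (-0.93 ± 0.08). GPT2 read 187, 189.9 and 183 CPM and 89.9, 104 and 91.2 CPM (-0.98 ± 0.08). The other serine enzymes were lower by less, PHGDH at -0.33 ± 0.08 (from 167, 197 and 171 to 136, 151 and 140.0 CPM) and PSPH at -0.47 ± 0.09. ALDH18A1 was the reverse of these, at 422, 386 and 437 CPM at pH 7.4 and 849.7, 745 and 835 CPM at pH 6.0 (0.97 ± 0.09, adjusted p = 6.45e-09). PYCR1, which ends the proline pathway that ALDH18A1 begins, did not pass (0.02 ± 0.11, adjusted p = 0.9). SHMT2 (-0.09 ± 0.08) and GOT1 (-0.13 ± 0.08) did not pass, nor did ALDH1L2, CBS and BCAT1, whose counts leave SEs of 0.341 to 0.522. XPOT read 426, 411 and 442 CPM and 268, 260.4 and 235 CPM (-0.74 ± 0.08) and was now lower.

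**Figure D2:**
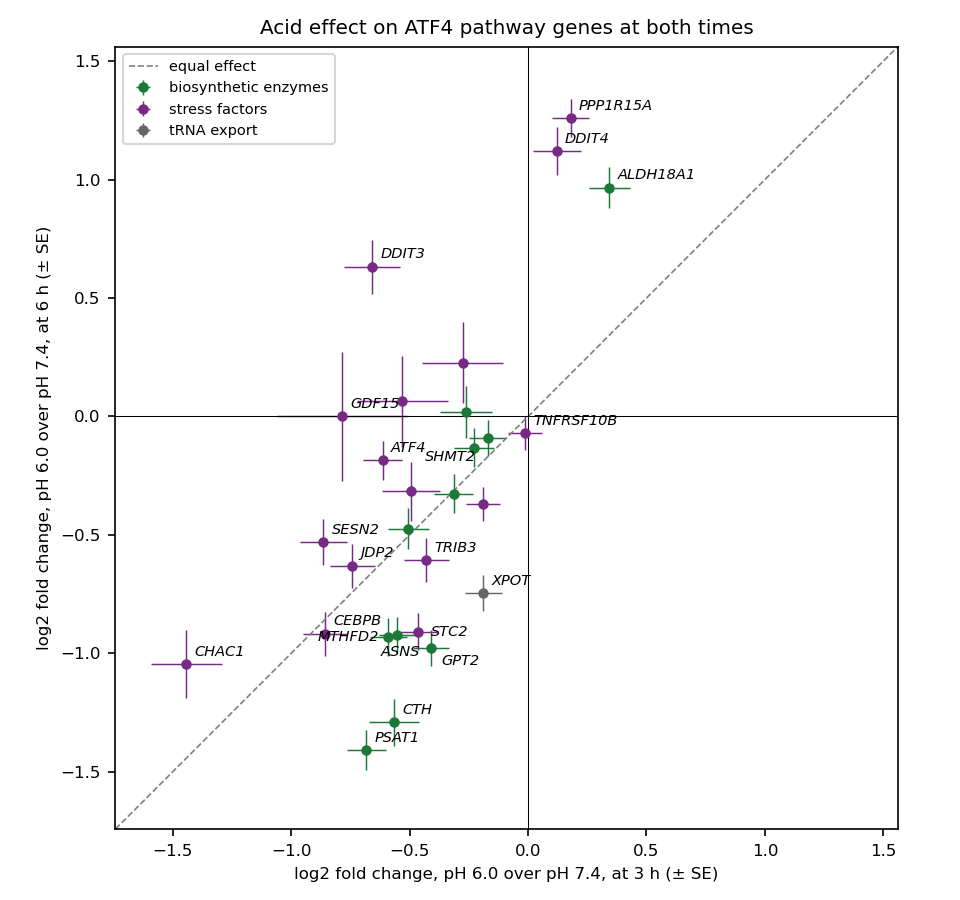
The log2 fold change of pH 6.0 over pH 7.4 at 6 h (y axis) is plotted against that at 3 h (x axis) for the 28 members with a mean of at least 5 CPM, with bars of 1 SE and a dashed line of equal effect. PPP1R15A, DDIT4, ALDH18A1 and DDIT3 lie above the line, and PSAT1, CTH, GPT2 and XPOT below it.

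Changes from 3 h to 6 h within each pH were tested on the same libraries as the acid differences. In neutral saline 16 of 32 members rose from 3 h to 6 h and 1, ALDH18A1, fell, against 17.2% and 14.4% of all genes, and the members' median was 0.38. The libraries of the times did not overlap for 19 members at pH 7.4, 1 of them lower, against 43.4% of all genes (20.7% lower). In acid saline 16 members rose and 1 fell, the scarce ALDH1L2, against 8.64% and 10.9% of all genes, with a median of 0.31. Here the libraries did not overlap for 22 members, again 1 of them lower, against 35.6% of all genes (19.6% lower). The call of ALDH1L2 was lost when any of 4 of the 6 acid libraries was left out. Of the members that rose, 12 did so at both pH values. A further 4 passed at pH 7.4 alone (CEBPG, GPT2, PSAT1 and STC2) and 4 at pH 6.0 alone (ATF4, CHAC1, DDIT3 and DDIT4). Of the latter, CHAC1 likewise lost its call when any of 4 acid libraries was left out. The matching split over all genes was not counted. Passing at one pH and not at the other is not by itself a difference, which the interaction below tests.

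Among the members that were lower at pH 6.0 after 6 h, several enzymes rose further at pH 7.4 than at pH 6.0. CTH rose at pH 7.4 from 16.9, 14.7 and 15.2 CPM to 36.3, 37.5 and 38.0 CPM (1.25 ± 0.10), and at pH 6.0 from 10.5, 10.3 and 10.8 to 14.3, 15.5 and 15.8 CPM (0.53 ± 0.11, adjusted p = 0.00122). PSAT1 rose at pH 7.4 (0.79 ± 0.08) and at pH 6.0 had a change of 0.06 ± 0.08 (adjusted p = 0.651). XPOT rose by 0.82 ± 0.08 at pH 7.4 and by 0.26 ± 0.08 at pH 6.0, where the call was lost with total counts and without the third 3 h or the first 6 h acid library. MTHFD2 (0.79 ± 0.08 at pH 7.4, 0.45 ± 0.08 at pH 6.0) and ASNS (0.68 ± 0.08 and 0.31 ± 0.08) rose at both, and GPT2 passed at pH 7.4 (0.72 ± 0.08) but not at pH 6.0 (0.15 ± 0.08). These time effects share the 6 h libraries with the acid differences at 6 h and are no independent evidence of them. STC2 passed at pH 7.4 (0.55 ± 0.08) and had 0.10 ± 0.08 at pH 6.0, while CEBPB (0.55 ± 0.09 and 0.49 ± 0.09) and JDP2 (0.47 ± 0.09 and 0.58 ± 0.10) rose by like amounts at both. So did GOT1 (0.39 ± 0.08 and 0.49 ± 0.08), which was not called lower at pH 6.0 after 6 h. CHAC1 (0.13 ± 0.14), ATF5 (-0.07 ± 0.12), PHGDH (0.19 ± 0.08), PSPH (0.19 ± 0.09) and VLDLR (0.00 ± 0.24) had no change with time at pH 7.4 that passed.

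The 4 members that were higher at pH 6.0 after 6 h are given first. PPP1R15A rose at both, by 0.73 ± 0.08 at pH 7.4 and 1.81 ± 0.08 at pH 6.0. DDIT4 had a change of 0.23 ± 0.10 at pH 7.4 (adjusted p = 0.0887) and rose by 1.23 ± 0.10 at pH 6.0. DDIT3 had -0.05 ± 0.11 at pH 7.4 (adjusted p = 0.765) and rose by 1.24 ± 0.12 at pH 6.0. ALDH18A1 fell at pH 7.4 (-0.61 ± 0.09) and did not pass at pH 6.0 (0.01 ± 0.09, adjusted p = 0.954). Of the other stress factors, SESN2 rose at both (0.63 ± 0.10 and 0.97 ± 0.10), as did TNFRSF10B (0.78 ± 0.07 and 0.72 ± 0.07) and TRIB3 (0.74 ± 0.09 and 0.56 ± 0.09). GDF15 rose by 0.92 ± 0.27 at pH 7.4, a call lost under 6 of 20 alternatives, and by 1.71 ± 0.28 at pH 6.0. ATF4 rose at pH 6.0 (0.47 ± 0.08, adjusted p = 0.000289) and had 0.04 ± 0.08 at pH 7.4 (adjusted p = 0.731), which passed there with the gene length offset alone.

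**Figure D3:**
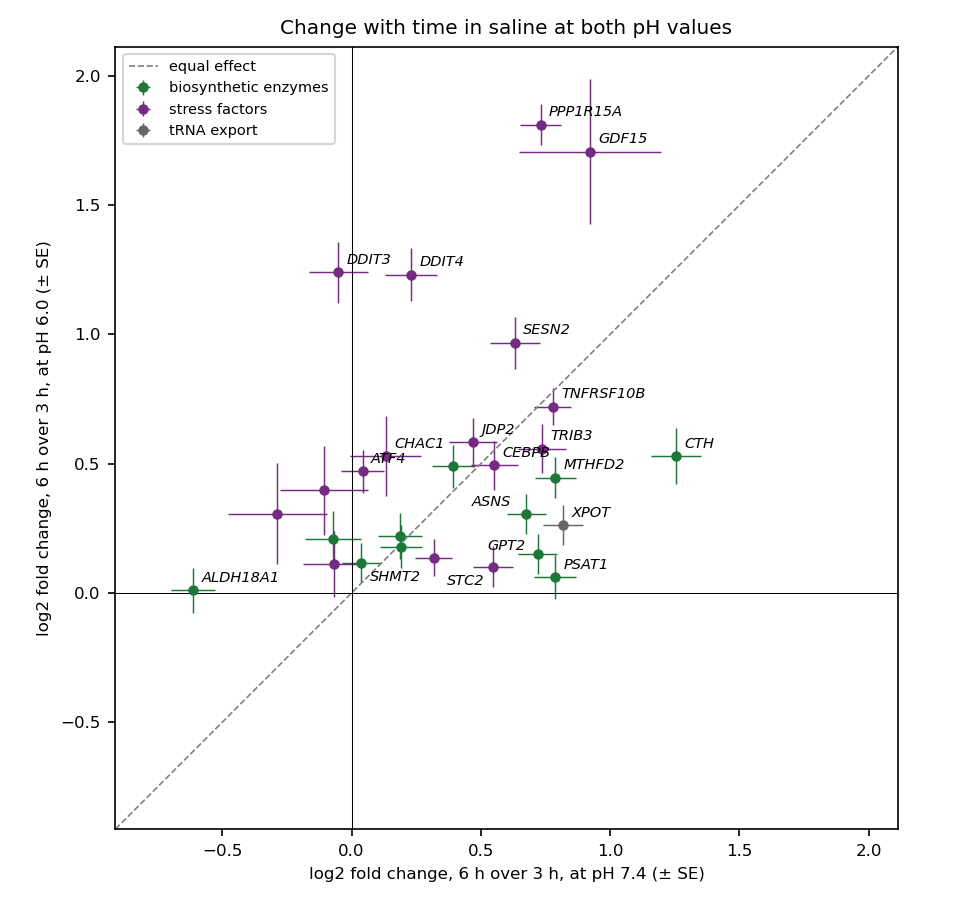
The log2 fold change from 3 h to 6 h at pH 6.0 (y axis) is plotted against that at pH 7.4 (x axis) for the 28 members with a mean of at least 5 CPM, with bars of 1 SE and a dashed line of equal change. PPP1R15A, DDIT3 and DDIT4 lie above the line, CTH, PSAT1, GPT2 and XPOT below it, and TNFRSF10B close to it.

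The interaction tests whether the acid difference itself changed from 3 h to 6 h. It passed for 40.6% of the members, against 29.4% of all genes, with 5 higher and 8 lower (background 13.1% and 16.3%). Among the stress factors 4 of 17 were higher and 1, STC2, was lower, with a class median of 0.34. DDIT3 had the largest of these shifts at 1.29 ± 0.16 (adjusted p = 9.43e-06), ahead of PPP1R15A at 1.08 ± 0.11 (7.98e-07), DDIT4 at 1.00 ± 0.14 (3.96e-05) and ATF4 at 0.43 ± 0.12 (0.00878). Among the enzymes 6 of 14 were lower and ALDH18A1 was higher (0.62 ± 0.12). PSAT1 (-0.73 ± 0.12), CTH (-0.73 ± 0.15), GPT2 (-0.57 ± 0.11), ASNS (-0.37 ± 0.11, adjusted p = 0.0128), MTHFD2 (-0.34 ± 0.11, 0.0244) and ALDH1L2 (-1.87 ± 0.66, 0.0368) were those that were lower. The calls of MTHFD2 and of ALDH1L2, whose libraries lay between 0.0679 and 1.50 CPM, were each lost under 10 alternatives. ASNS lost its call without the third neutral or the first acid library of 3 h, or the first acid library of 6 h (adjusted p up to 0.0716). XPOT was lower (-0.56 ± 0.11) but not with the gene length offset, which also took the call of STC2 (adjusted p = 0.0966 and 0.168).

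Side by side, 7 of 14 enzymes and 9 of 17 stress factors were lower at each time, and 1 enzyme and 3 stress factors were higher at 6 h. The higher shares at 6 h, 7.14% and 17.6%, are both below the 21.9% of all genes. The enzyme median of the interaction was -0.36 over 14 genes but 0.002 over the 11 expressed at 5 CPM or more, with PHGDH, PSPH, SHMT2, PYCR1 and GOT1 between -0.01 and 0.28 and the scarce ALDH1L2, CBS (-0.70 ± 0.48) and BCAT1 (-0.98 ± 0.74) negative with wide SEs. The enzymes thus differed among themselves. For ASNS, PSAT1, MTHFD2, CTH and GPT2 the acid difference was more negative at 6 h than at 3 h. All of these rose with time at pH 7.4, and none fell at pH 6.0. The interaction calls of ASNS and MTHFD2 were lost under 3 and 10 of 19 alternatives. For ALDH18A1 the acid difference was larger at 6 h, with a log2 change with time of -0.61 at pH 7.4 and 0.01 at pH 6.0. The serine enzymes on either side of PSAT1 had interactions of -0.01 ± 0.12 and 0.03 ± 0.12, and neither passed. CEBPB (-0.06 ± 0.13), TRIB3 (-0.18 ± 0.13), JDP2 (0.11 ± 0.13) and CEBPG (-0.18 ± 0.10) likewise had no interaction that passed. The remaining stress factors did not pass. Among 19 alternatives SESN2 (0.34 ± 0.14) passed under 6, NUPR1 (0.59 ± 0.27) and EIF4EBP1 (0.50 ± 0.24) under 2 each, and CHAC1 (0.40 ± 0.21) under 1, as did JDP2 and, of the enzymes, PYCR1. No test of 1 class against the other was made, since members are not replicates.

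Upstream of ATF4, the 4 eIF2 kinase genes showed small differences. EIF2AK3, the ER stress kinase PERK, was lower at pH 6.0 at both times (-0.37 ± 0.11 at 3 h, adjusted p = 0.0172, and -0.35 ± 0.10 at 6 h, adjusted p = 0.00844). EIF2AK2, the double-stranded RNA kinase PKR, was higher at 3 h (0.26 ± 0.09) and lower at 6 h (-0.27 ± 0.09), and the haem-regulated EIF2AK1 was higher at 6 h (0.20 ± 0.07). EIF2AK4, the amino acid sensor GCN2, did not pass at 3 h (0.20 ± 0.08) or 6 h (-0.01 ± 0.08). Of 19 genes for eIF2, its exchange factor eIF2B and their regulators, 2 were higher and 3 lower at 3 h, and 9 higher and 1 lower at 6 h. That is 10.5% higher and 15.8% lower at 3 h, near the 9.53% and 9.26% of all genes, and 47.4% higher at 6 h, against 21.9% of all genes. PPP1R15B, the constitutive counterpart of PPP1R15A, was higher at 6 h (0.49 ± 0.08), as were EIF2S1, the phosphorylated subunit (0.34 ± 0.08), and IMPACT, an inhibitor of GCN2 (0.47 ± 0.11), while the subunit gene EIF2S2 was lower (-0.27 ± 0.08).

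Other genes downstream of ATF4 were counted in lists by function. Amino acid transporter genes were lower in 9 of 10 cases at 3 h and 10 of 10 at 6 h, with medians of -0.45 and -1.17, against 9.26% and 25.1% of all genes lower at these times. The 4 with the smallest p-values were the glycine transporter SLC6A9 (-2.49 ± 0.12), the neutral amino acid transporter SLC38A2 (-2.42 ± 0.08), the cystine exchanger SLC7A11 (-1.63 ± 0.11) and the cationic transporter SLC7A1 (-1.29 ± 0.09), all lower at 6 h. All 10 rose with time at pH 7.4 and 3 at pH 6.0, against 17.2% and 8.64% of all genes. Of 20 cytosolic aminoacyl-tRNA synthetase genes 10 were lower and 5 higher at 6 h (8 and 1 at 3 h), with AARS1 (-0.82 ± 0.08), WARS1 (-0.76 ± 0.08), MARS1 (-0.72 ± 0.07) and CARS1 (-0.61 ± 0.07) lower. At 6 h these are 50% lower, against 25.1% of all genes, and 25% higher, near the 21.9% of all genes. At 3 h 40% of them were lower, against 9.26%. A mixed list of 13 further ATF4 targets had 6 higher and 6 lower at 6 h, and 2 and 3 at 3 h. In either direction these are 92.3% and 38.5% of the list, against 47% and 18.8% of all genes. In it ATF3, also an immediate early gene (1.95 ± 0.09), and the growth arrest gene GADD45A (1.43 ± 0.14) were higher, while ADM2, a secreted peptide hormone (-1.63 ± 0.12), and the mitochondrial carboxykinase PCK2 (-0.62 ± 0.08) were lower.

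Genes of the other ER stress branches, ATF6 and XBP1, were mostly higher at 6 h. Of 23, 3 were higher and 3 lower at 3 h, and 15 higher and 2 lower at 6 h (median 0.40). The shares at 3 h, 13% each way, are near those of all genes (9.53% and 9.26%), while 65.2% higher at 6 h stands against 21.9%. HERPUD1, a component of ER-associated degradation (1.12 ± 0.07), the chaperone HSPA5 (1.02 ± 0.08) and the disulphide isomerase PDIA4 (0.54 ± 0.07) were higher at 6 h, and the sensor ERN1 was lower (-1.41 ± 0.13). MYC, a regulator of many amino acid and one-carbon genes, was lower at both times (-1.68 ± 0.10 and -3.03 ± 0.10), and its part in the members' differences was not tested.

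**Figure D4:**
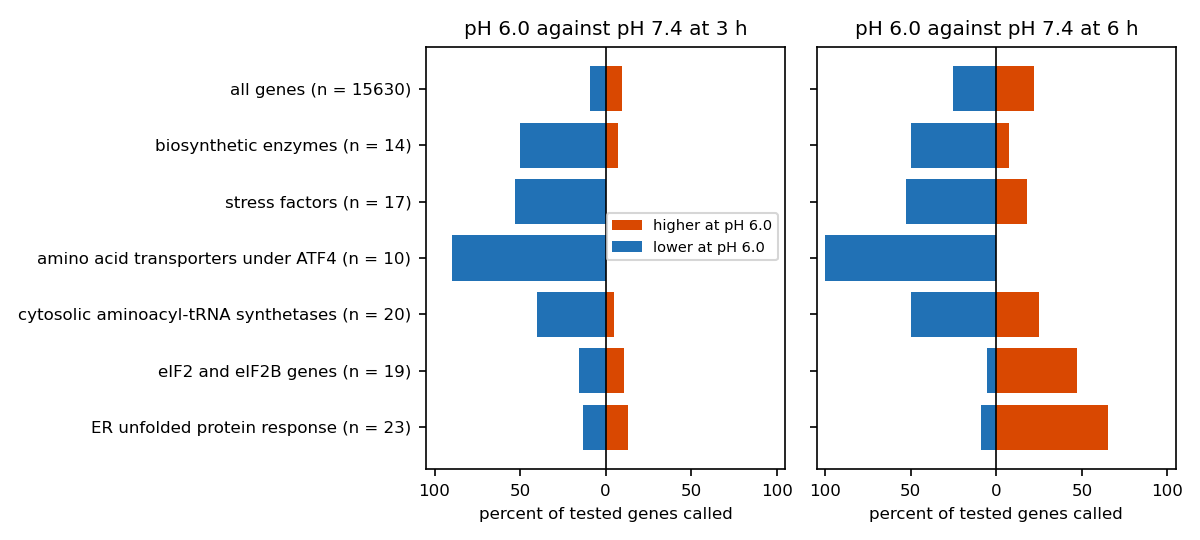
Bars give the percent of tested genes that were higher (right of 0) or lower (left of 0) at pH 6.0, at 3 h and at 6 h, for all genes and for 6 lists (y axis, n is the number of genes tested). The lower share of enzymes and stress factors is near 50% at both times, while the ER unfolded protein response list is mostly higher at 6 h.

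For some members the gene that a read came from is uncertain. In GENCODE 29, exons of other genes overlap those of ASNS, SHMT2, MTHFD2, ALDH1L2, PYCR1, GOT1, BCAT1, ATF5, DDIT3, CEBPB, JDP2, DDIT4, TNFRSF10B and VLDLR, on the opposite strand in all of these but ASNS, where it is the same strand, and PYCR1, ATF5 and DDIT3, where it is both. Pseudogenes named after them are annotated for ASNS, PSAT1, PSPH, MTHFD2, ATF4, EIF4EBP1 and XPOT. How reads that fit more than 1 place were counted is not given in the sources used here.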

How the data were processed

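Read counts per gene for 12 libraries of T84 cells are as the authors deposited them, as whole numbers. STAR, CASAVA and the hg19 build are named per the submitters' processing notes. No source used here gives their versions, the annotation, the counting program or the use of strand. The RPKM values deposited by the authors were used only to compare levels between genes and to recover gene lengths, which reproduced 100.0% of them within a relative tolerance of 1e-06. Symbols came from the names table and GENCODE 29, a GRCh38 annotation used for names and exon overlap only. Of 153 symbols in all lists, 1 (PECAM1) matched no identifier. Promoter windows are RefSeq's.

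edgeR 4.0.16 (R 4.3.3) was run with TMM factors, its default expression filter and 1 robust quasi-likelihood fit over the 12 libraries (4 groups, 8 residual degrees of freedom). P-values were adjusted by Benjamini-Hochberg over 15630 genes. The SE is the size of a log2 fold change over the root of its F value. No library was a copy of another in its group, since chi-square over genes was at least 5.40 per degree of freedom. The procedure was run on simulated counts, drawn as independent libraries with the dispersions of this fit. Changes were put only into genes with higher counts, so the run does not cover the scarce members. Alternatives were DESeq2 1.42.0, median-of-ratios factors, total counts, no filter, a floor of 5 CPM in 3 or more libraries, fits of the compared groups alone, a replicate block, an offset for gene length and each library left out. The members, lists and their grouping were chosen with earlier results of these data known. All members are named, with all eIF2 kinases and up to 4 genes of each other list with the smallest p among those changed at 6 h.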

Additional observations from a re-analysis of the deposited data

Results flagged for a closer look

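For 13 members the acid difference in log2 was not the same at 6 h as at 3 h by edgeR's interaction test, with 3 libraries a group. That is 40.6% of the members, against 29.4% of all genes. The positive share was 15.6%, near the 13.1% of all genes, and the negative share 25%, against 16.3%. The difference at 6 h minus that at 3 h was positive for DDIT3 (1.29), PPP1R15A (1.08), DDIT4 (1.00), ALDH18A1 (0.62) and ATF4 (0.43). It was negative for ALDH1L2 (-1.87), PSAT1 (-0.73), CTH (-0.73), GPT2 (-0.57), XPOT (-0.56), STC2 (-0.44), ASNS (-0.37) and MTHFD2 (-0.34). The calls of the scarce ALDH1L2 and of MTHFD2 were each lost under 10 alternatives, that of ASNS under 3, and those of XPOT and STC2 under 1 each. DDIT3 is the member whose difference passed in opposite directions at the 2 times, from 21.4, 19.9 and 22.1 CPM at pH 7.4 to 13.9, 10.7 and 15.5 CPM at pH 6.0 at 3 h, and from 20.5, 21.2 and 19.4 to 29.2, 32 and 33.6 CPM at 6 h. The DDIT3 shift kept an adjusted p of at most 6.55e-05 over 19 alternatives, and those of PPP1R15A and DDIT4 of at most 7.12e-06 and 0.000276.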

How the results depend on the processing

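Over 3145 refits of single members, no called difference changed sign, 57 lost their call and 59 gained one. The count of genes at 3 h ran from 1648 to 3617 with 1 library left out (1661 without the first neutral, 1649 without the second and 1648 without the third acid library, against 2937), and the count with time at pH 6.0 from 1915 (without the third 3 h acid library) to 3408, against 3050. Members lower with time at pH 6.0 numbered 2 with total counts, 0 with the 5 CPM filter, which drops ALDH1L2, and 0 to 1 with a library left out. With the gene length offset 2 members were higher at 3 h and 4 were lower in the interaction. With a library left out 5 to 9 members were higher in the interaction (9 without the first acid library at 3 h) and 5 to 8 lower (5 without the third neutral library at 3 h or the first acid library at 6 h). The enzyme median under the 5 CPM filter was -0.38 at 3 h, -0.43 at 6 h and 0.0021 in the interaction, and the stress factor median at 6 h was -0.21. With total counts the enzyme median with time was 0.30 at pH 7.4 and 0.080 at pH 6.0, and that of stress factors 0.45 at pH 6.0. With a library left out the enzyme median ran from 0.35 to 0.66 with time at pH 7.4 (0.66 without the second 3 h library), from -0.36 to -0.28 at 3 h, from -0.67 to -0.45 at 6 h and from -0.40 to -0.26 in the interaction. The stress factor median ran from 0.41 to 0.61 with time at pH 6.0, from -0.55 to -0.41 at 3 h and from 0.20 to 0.43 in the interaction (0.20 without the second acid library at 3 h, against 0.34). The cause of these shifts was not tested, other than the genes and libraries left out by construction.

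Deviations from the group mean correlated above 0.1 in 2 of 18 same-numbered pairs of libraries (r from -0.13 to 0.23, median 0.03). Among pairs of unlike number 4 of 36 did so (r from -0.19 to 0.16, median -0.02). These correlations do not settle whether libraries of the same number were paired. With the replicate block 3231 genes changed at 3 h, 7457 at 6 h, 5115 and 3289 with time at pH 7.4 and pH 6.0, and 4774 in the interaction. Without it the counts were lower, at 2937, 7342, 4942, 3050 and 4589 in the same order. Total counts moved the split of all changed genes to 1194 higher and 1752 lower at 3 h (1489 and 1448 with TMM), 2093 and 3179 with time at pH 7.4 (2695 and 2247) and 773 and 2499 at pH 6.0 (1351 and 1699). The gene length offset moved it to 2174 and 1453 with time at pH 6.0 and to 2013 and 1533 in the interaction (2048 and 2541). Depth limits ALDH1L2, BCAT1, CBS and VLDLR, with 176, 135, 355 and 533 counts over all libraries.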
